A study of Mus musculus with 40 samples.

Results

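The interferon regulatory factors (IRFs) are a family of transcription factors that share a DNA-binding domain with a cluster of conserved tryptophans. The 8 members described here, Irf1, Irf2, Irf3, Irf4, Irf5, Irf7, Irf8 and Irf9, were taken by gene symbol from the 21950 genes of an RNA-seq table, without regard to their levels. In the GENCODE annotation of GRCm38 they lie at chr11:53770014-53778374 (Irf1), chr8:46739732-46847458 (Irf2), chr7:44997648-45002848 (Irf3), chr13:30749226-30766976 (Irf4), chr6:29526625-29541871 (Irf5), chr7:141262706-141266481 (Irf7, on the minus strand), chr8:120736358-120756694 (Irf8) and chr14:55603571-55610030 (Irf9). The table covers 24 libraries of mouse CD4+ T cells in 8 groups of 3. Conventional T cells (Tconvs) and thymus-derived regulatory T cells (tTregs, named nTreg in the labels) were each sampled resting and activated, and came from the spleens of C57BL/6 Foxp3 reporter mice of 2 to 4 months of age. Induced Tregs (iTregs) were made from naive CD4+ cells of 6-week-old reporter mice by 4 days on plate-bound anti-CD3 (0.5 µg/ml) with anti-CD28 (1 µg/ml), 2 ng/ml TGF-β and 200 U/ml IL-2, sorted on the Foxp3 reporter and rested for 1 day in the same IL-2. They were sampled resting, restimulated through CD3 and CD28, and restimulated with either CM-4620, which blocks the ORAI channels of store-operated calcium entry (SOCE; the labels say only ORAI inhibitor), or cyclosporin A (CsA), which blocks the phosphatase calcineurin. No group carried a targeted gene other than the Foxp3 reporter, and the durations of activation and restimulation before these libraries and the inhibitor doses were not given in the sources used here.

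IRFs bind DNA elements that contain the GAAA core, of which the interferon-stimulated response element (ISRE) is the best known. IRF3, IRF5 and IRF7 are latent factors that are phosphorylated downstream of nucleic acid sensors and drive interferon and cytokine genes, IRF9 forms, with STAT2, part of the complex that carries the type I interferon signal, IRF1 activates and IRF2 often restrains genes downstream of interferon-γ, and IRF4 and IRF8 bind weakly alone and act with partners such as BATF-JUN or PU.1. In T cells, IRF4 is known as a gene induced by antigen receptor signals in proportion to their strength and as a factor for effector Treg function.

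Reads on genes, recovered from the deposited values, ranged from 5256800 to 15685234 per library, with the lowest count in an activated tTreg library. A count of 3 reads, taken as a floor, was worth between 2.12 and 5.45 normalized counts, which are reads divided by a size factor per library. All 8 members lay above the floor in every library, and all 8 passed the filter on low values in every comparison. The cell type labels were checked on marker genes. The 5 Treg markers summed to between 463 and 490 in resting Tconvs and between 5210 and 5430 in activated Tconvs. They summed to between 31900 and 33800 in resting tTregs and between 27100 and 29200 in activated tTregs. In iTregs they summed to between 14600 and 18400 at rest and between 13300 and 14200 in the restimulated groups. The list thus also rose with activation in Tconvs. Because several IRFs are abundant in B cells and myeloid cells, the markers of those cells were read too. The 6 B cell markers summed to between 132 and 139 normalized counts in resting tTregs, between 89.0 and 135 in activated tTregs and between 16.8 and 44.3 in the other groups. Of these, Cd79b reached 126, whereas Ms4a1 and Pax5 were at 0 in all 24 libraries. The 9 myeloid and dendritic cell markers summed to at most 25.3 in any library, and Clec9a was at 0 throughout. The 3 natural killer cell markers summed to between 19.3 and 30.9 in resting Tconvs, to at most 3.54 in activated Tconvs and to 0 elsewhere, and the 2 CD8 markers to between 99.0 and 236 over all libraries. The 6 T cell markers summed to between 25400 and 47700.

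**Figure D1:**
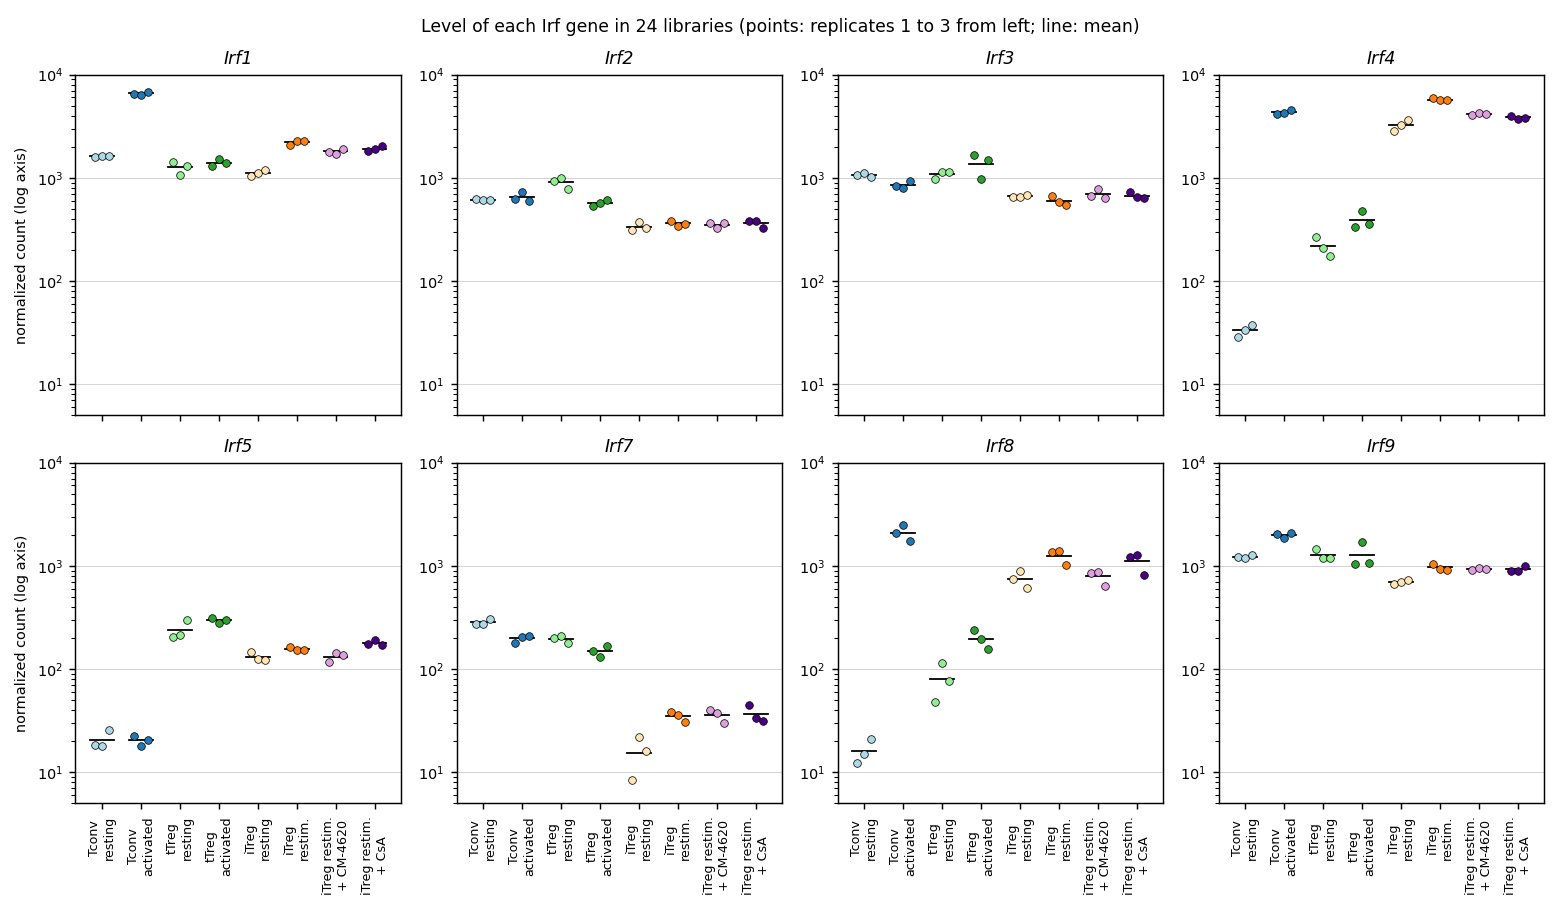
Normalized count of each Irf gene (log axis) in every library of the 8 groups, with the 3 replicates as points and the group mean as a line. Irf4 and Irf8 span the widest range of levels, and Irf7 is lowest in the 4 iTreg groups.

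Activation of Tconvs raised 4 members of the family, and 2 of them by more than 100-fold. Here and below, a change means that limma gave an adjusted p under 0.05 with a log2 fold change of more than 0.5 in size, and by that rule 50.2% of the 11495 genes tested changed on Tconv activation, so 4 of 8 members is close to the share over the whole table. Irf4 stood at 28.8, 33.8 and 37.7 normalized counts in the 3 resting Tconv libraries and at 4186, 4235 and 4507 in the activated ones. Irf8, which in T cells shares partners with IRF4, stood at 12.3, 15.0 and 21.1 in resting and at 2088, 2465 and 1721 in activated Tconvs. Both genes went from near the bottom of the tested range to 1721 counts or more, without overlap between the groups. The log2 fold change was 6.98 ± 0.161 (SE) for Irf4 (adjusted p = 1.25e-13) and 6.95 ± 0.275 for Irf8 (adjusted p = 2.6e-11), or 126-fold and 123-fold on the scale of the normalized count plus 1. These p-values, like all those that follow, measure the spread between the 3 libraries of a group, pooled over all groups of a fit. Nothing in the labels ties the libraries to separate animals, so that the spread may be technical.

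Irf1, the activator of genes downstream of interferon-γ, was already abundant in resting Tconvs at 1588, 1621 and 1626 and rose to 6487, 6406 and 6779 on activation (log2 fold change 2.02 ± 0.097, 4.07-fold, adjusted p = 2.01e-10). Irf9 rose less, from 1216, 1200 and 1271 to 2027, 1866 and 2094 (log2 fold change 0.70 ± 0.147, adjusted p = 0.00077). The members that carry signals from nucleic acid sensors did not pass the test in either direction. Irf3 had a log2 fold change of -0.31 (95% confidence interval -0.63 to 0.01) and Irf5, at about 20 counts in both states, one of 0.00 (-0.38 to 0.37). Irf7 stood at 276, 275 and 305 in resting and at 181, 204 and 209 in activated Tconvs, so the groups did not overlap, but its log2 fold change of -0.53 had an adjusted p of 0.0654. Of the 15 alternative ways of processing, 4 called it lower. Among them were edgeR on the recovered reads (adjusted p = 0.0086) and limma on the 2 Tconv groups alone (adjusted p = 0.000308). The main fit also pooled resting iTregs, where Irf7 had a log2 SD of 0.659, against 0.084 and 0.113 in the Tconv groups. Irf2, the counterpart of Irf1, had a log2 fold change of 0.08 (-0.15 to 0.30).

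The 3 members with the largest response, and Irf2 as one that did not pass the test, are shown by the 250 bases before their RefSeq transcription start, because a window so close to the start is where the classical elements of Irf1 and Irf8 lie. Sequences are from RefSeq on GRCm38.p6, 5′ to 3′ on the strand of the gene, which is the plus strand for all 4. Irf1 is at chr11:53769764-53770013, Irf4 at chr13:30748983-30749232, Irf8 at chr8:120736108-120736357 and Irf2 at chr8:46739495-46739744. Capitals mark matches to the core of the STAT-binding GAS element (TTCNNNGAA), to an ISRE core (the GAAA core repeated after 2 bases) or to a TATA box (TATAAA), searched on both strands.
Irf1: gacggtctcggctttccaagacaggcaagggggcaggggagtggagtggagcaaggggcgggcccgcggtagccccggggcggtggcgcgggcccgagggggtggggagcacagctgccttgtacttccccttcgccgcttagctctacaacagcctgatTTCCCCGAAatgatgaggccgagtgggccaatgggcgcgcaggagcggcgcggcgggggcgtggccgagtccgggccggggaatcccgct
Irf4: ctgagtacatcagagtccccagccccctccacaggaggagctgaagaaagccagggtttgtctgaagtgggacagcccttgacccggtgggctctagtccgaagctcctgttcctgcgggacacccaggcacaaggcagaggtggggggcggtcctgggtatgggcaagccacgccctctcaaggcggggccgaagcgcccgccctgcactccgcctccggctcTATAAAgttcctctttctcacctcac
Irf8: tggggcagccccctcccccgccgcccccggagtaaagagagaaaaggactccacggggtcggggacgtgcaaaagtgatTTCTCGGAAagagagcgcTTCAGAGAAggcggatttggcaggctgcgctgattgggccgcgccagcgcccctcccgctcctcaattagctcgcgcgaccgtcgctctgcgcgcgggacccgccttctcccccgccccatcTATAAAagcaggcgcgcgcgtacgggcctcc
Irf2: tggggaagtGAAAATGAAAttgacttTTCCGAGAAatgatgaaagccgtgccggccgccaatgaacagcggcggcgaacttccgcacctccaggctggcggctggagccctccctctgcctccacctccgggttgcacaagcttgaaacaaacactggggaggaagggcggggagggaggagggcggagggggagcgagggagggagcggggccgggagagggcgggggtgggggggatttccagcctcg
The GAS core was found once in the Irf1 window, beginning 90 bases before the start, at 171 and 153 bases before the start of Irf8, and 224 bases before that of Irf2. Of the 32851 promoter windows in the table, 7.02% held it. The Irf2 window also held an ISRE core 241 bases before the start, as 2.98% of all windows did. Irf4 and Irf8 each held a TATA box, at 26 and 31 bases before the start, as did the Irf7 window, which is not shown, and 12.4% of all windows. None of the 8 windows held the AP-1 motif TGANTCA, which 6.75% of all windows held. The short NFAT core GGAAA was in 5 of the 8 windows, those of Irf1, Irf2, Irf3, Irf8 and Irf9, and in 55.6% of all windows. A match is a run of letters, not a bound site, and enhancers outside these windows were not searched.

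In tTregs, activation raised Irf4 and Irf8 by far less than in Tconvs and lowered Irf2, while Irf1 did not pass the test. Changes were rarer over the table as well, at 21.9% of the genes tested, against 3 of the 8 members. Irf4 was at 266, 210 and 173 in resting and at 335, 472 and 354 in activated tTregs (log2 fold change 0.84 ± 0.161, adjusted p = 0.00118). Irf8 was at 48.1, 114 and 77.5 in resting and at 238, 196 and 158 in activated tTregs (log2 fold change 1.36 ± 0.275, adjusted p = 0.00174). Neither pair of groups overlapped, though every activated tTreg library lay far under the activated Tconv libraries for both genes. Irf2 fell from 923, 997 and 786 to 533, 572 and 612 (log2 fold change -0.65 ± 0.106, adjusted p = 0.000359). Irf1 stood at 1418, 1063 and 1296 in resting and at 1295, 1532 and 1381 in activated tTregs, 2 ranges that overlap (log2 fold change 0.16, 95% confidence interval -0.05 to 0.37).

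Activated tTregs were uneven for Irf3 and Irf9. Irf3 measured 1648, 964 and 1500 there and Irf9 measured 1049, 1703 and 1068, so that the second library was low for the one and high for the other. Without the second replicate of every group, Irf3 was called higher on tTreg activation (log2 fold change 0.57, adjusted p = 0.00659, against 0.31 and 0.129 with all libraries).

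The difference between the 2 responses was tested as an interaction, which 34.7% of all genes passed. The response of Irf4 was smaller in tTregs than in Tconvs by 6.13 ± 0.227 on the log2 scale (difference -6.13, adjusted p = 1.1e-10), that of Irf8 by 5.59 ± 0.388 (difference -5.59, adjusted p = 5.5e-08) and that of Irf1 by 1.86 ± 0.137 (difference -1.86, adjusted p = 9.86e-08). Irf2 (difference -0.73, adjusted p = 0.00145), Irf9 (-0.72, adjusted p = 0.0125) and Irf3 (0.62, adjusted p = 0.0316) passed too. Without replicate 1 or without replicate 3 the calls of Irf3 and Irf9 were lost, with adjusted p between 0.114 and 0.29. Irf5 and Irf7 did not pass, with adjusted p of 0.306 and 0.796. In bulk libraries such as these, fewer responding cells and less RNA per cell cannot be told apart.

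**Figure D2:**
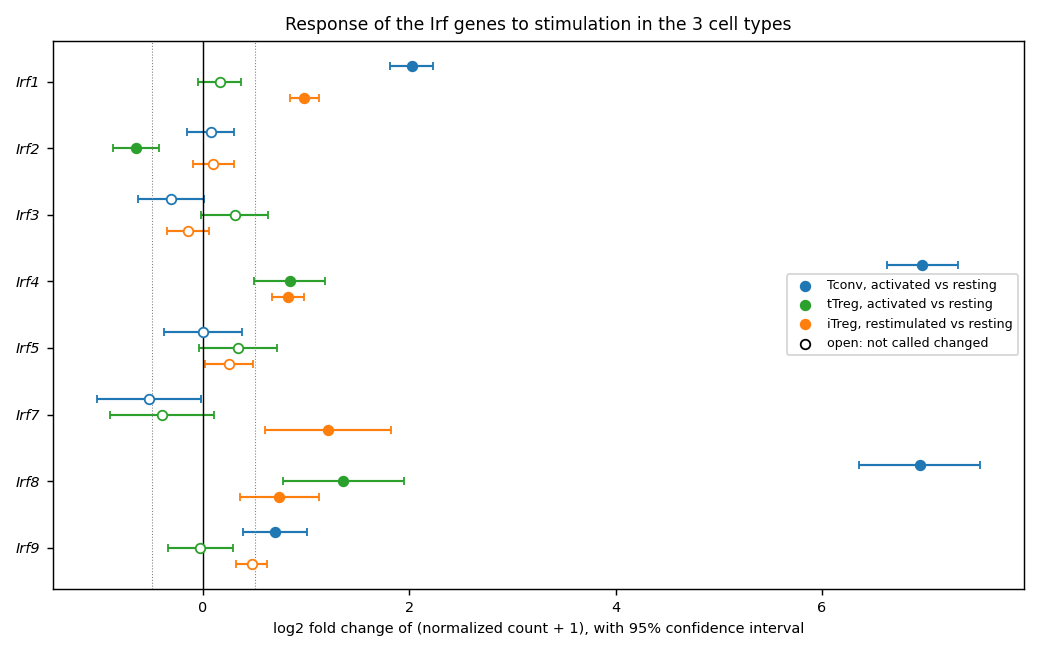
Log2 fold change on stimulation with its 95% confidence interval for each Irf gene in Tconvs, tTregs and iTregs, filled where the gene was counted as changed. Irf4 and Irf8 lie near 7 in Tconvs and under 1.5 in both kinds of Treg.

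The starting levels differed as well. Of the 8 members, 4 were higher in resting tTregs than in resting Tconvs and none was lower, where 38.6% of all genes changed. Irf5, a factor of Toll-like receptor signaling, showed the largest difference. It measured 18.5, 17.8 and 25.5 in resting Tconvs and 203, 213 and 296 in resting tTregs (log2 fold change 3.46 ± 0.177, 11.0-fold, adjusted p = 5.4e-10). Over all states, the 18 libraries of tTregs and iTregs lay at 116 or above for Irf5 and the 6 Tconv libraries at 25.5 or below. Of the Irf5 exon bases, 14.1% overlap exons of Tnpo3 on the other strand, and these libraries did not mark the strand. Tnpo3 itself averaged 1311 in resting and 1383 in activated Tconvs, 1041 and 1062 in the tTreg groups and between 1348 and 1474 in the iTreg groups, and its part in the values of Irf5 was not tested. The summed B cell markers given above were also highest in tTregs, where Ms4a1 and Pax5 were at 0.

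Irf4 was 6.25-fold higher in resting tTregs than in resting Tconvs (log2 fold change 2.65 ± 0.161, adjusted p = 3.9e-09) and Irf8 4.55-fold (2.19 ± 0.275, adjusted p = 1.01e-05). Irf2 was higher by 0.55 ± 0.106 (adjusted p = 0.000496), a call that was lost without replicate 2, where the difference was 0.48. Irf7 had a log2 fold change of -0.54 and an adjusted p of 0.0684, and 6 of the 15 alternatives called it lower. Irf1 was lower by less than the fold threshold (log2 fold change -0.37, adjusted p = 0.00548). After activation the order of Irf4 and Irf8 was turned round, and 6 members differed, against 48.2% of all genes. In activated tTregs Irf4 was 11.2-fold lower than in activated Tconvs (log2 fold change -3.49), Irf8 10.6-fold lower (-3.40) and Irf1 4.68-fold lower (-2.23), with adjusted p of at most 9.06e-08. Irf9 was also lower (-0.68, adjusted p = 0.000983), whereas Irf5 (3.80, adjusted p = 2.54e-10) and Irf3 (0.64, adjusted p = 0.00181) were higher. The Irf3 difference fell to 0.47 without replicate 1, under the fold threshold.

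Resting iTregs, 1 day after their induction, carried high Irf4 and Irf8 and the lowest Irf7 of all groups. All 8 members differed between resting iTregs and resting Tconvs, and 63.6% of all genes did. Irf4 measured 2861, 3220 and 3661 in resting iTregs, 94.4-fold above resting Tconvs (log2 fold change 6.56 ± 0.161, adjusted p = 6.97e-14). Irf8 measured 738, 899 and 613, 44.2-fold above (5.47 ± 0.275, adjusted p = 1.34e-10). These levels were close to those of activated Tconvs for Irf4, with a log2 difference from them of -0.42 (95% confidence interval -0.76 to -0.07, adjusted p = 0.0405) that did not reach the fold threshold. For Irf8 they were lower than in activated Tconvs by 2.79-fold (log2 fold change -1.48, adjusted p = 0.000348). Irf5 was 6.22-fold above resting Tconvs (adjusted p = 3.39e-09).

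Irf7, which amplifies type I interferon production, measured 8.43, 22.2 and 15.9 in resting iTregs, or 8, 22 and 21 reads. The resting Tconv libraries held between 275 and 305, so that the log2 fold change was -4.21 ± 0.235 (18.5-fold lower, adjusted p = 4.44e-10). It was likewise 12.7-fold lower than in resting tTregs (adjusted p = 2.57e-09). Irf2, Irf3, Irf9 and Irf1 were lower than in resting Tconvs by smaller steps, with log2 fold changes of -0.86, -0.68, -0.82 and -0.53, and the last fell just under the fold threshold without replicate 1 (-0.50). Against activated Tconvs, 6 members differed and 41.6% of all genes did, with Irf1 5.87-fold, Irf7 12.8-fold and Irf9 2.86-fold lower, Irf2 and Irf8 lower and Irf5 alone higher. Against resting tTregs, 7 members differed and 63.4% of all genes did. Irf4 was 15.1-fold and Irf8 9.73-fold higher in iTregs, and Irf2, Irf3, Irf5, Irf7 and Irf9 were lower. The mice that gave the iTregs were younger than those of the other groups, and the iTregs had been cultured for days, so cell type, age and culture cannot be told apart in these comparisons.

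Restimulation of iTregs raised Irf1, Irf4, Irf7 and Irf8 and lowered none, 4 of 8 members where 12.8% of 11105 genes changed. Irf1 rose from 1051, 1112 and 1187 to 2085, 2274 and 2260 (log2 fold change 0.98 ± 0.067, 1.98-fold, adjusted p = 7.15e-08). Irf4 rose from its already high level to 5893, 5633 and 5622 (0.82 ± 0.071, 1.77-fold, adjusted p = 7.94e-07). Both were without overlap between the groups. Irf7 rose to 38.3, 35.9 and 30.9, or 38, 32 and 34 reads (1.21 ± 0.286, adjusted p = 0.00513), and Irf8 to 1354, 1386 and 1012 (0.74 ± 0.18, adjusted p = 0.00621). The calls of Irf7 and Irf8 were lost without replicate 1 of each group, with adjusted p of 0.0703 and 0.0921 and log2 fold changes of 0.79 and 0.67. Irf9 passed the p threshold but not the fold threshold (0.47 ± 0.07, adjusted p = 0.000145). Irf8 was lowest in replicate 3 in all 4 iTreg groups, and in 6 of the 8 groups of the study.

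The response of Irf4 to restimulation did not pass a test against that of tTregs, with a log2 difference of -0.02 (95% confidence interval -0.41 to 0.37), although the levels were far apart. In this interaction, which 21.3% of all genes passed, the responses of Irf1 (0.82, adjusted p = 3.55e-05), Irf7 (1.61, adjusted p = 0.000651) and Irf2 (0.75, adjusted p = 0.000392) were larger in iTregs. The call of Irf2 was lost without replicate 1 (adjusted p = 0.0623). Against the response of Tconvs, which 44.2% of all genes passed, those of Irf4 (-6.15), Irf8 (-6.21) and Irf1 (-1.04) were smaller and that of Irf7 (1.74) was larger, with adjusted p of at most 9.42e-05. In level, restimulated iTregs differed from activated Tconvs in 7 members, against 44.3% of all genes. Irf5 was 7.42-fold higher and Irf1 2.97-fold, Irf7 5.53-fold and Irf9 2.06-fold lower, Irf2, Irf3 and Irf8 were lower by log2 fold changes of -0.83, -0.51 and -0.74, and Irf4 was 1.33-fold higher without reaching the fold threshold (0.41, adjusted p = 0.011). The call of Irf3 was lost without replicate 3 and that of Irf8 without replicate 2. From activated tTregs they also differed in 7 members, against 59.3% of all genes, with Irf4 14.9-fold, Irf8 6.33-fold and Irf1 1.58-fold higher and Irf2, Irf3, Irf5 and Irf7 lower.

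The 2 inhibitors ask how much of the restimulated state needs calcium entry through ORAI channels or calcineurin. Relative to restimulation alone, Irf8 was lower with CM-4620 and Irf4 was lower with CsA, and no member was higher with either. With CM-4620, under which 3.3% of all genes changed, Irf8 measured 845, 880 and 644 (log2 fold change -0.66 ± 0.18, 1.58-fold lower, adjusted p = 0.0351). That call was close to the threshold and was lost under 5 of the 15 alternatives, including DESeq2 on the recovered reads (adjusted p = 0.0578) and leaving out replicate 1 or replicate 2 (0.241 and 0.181). Irf4 with CM-4620 measured 4100, 4256 and 4186, below every restimulated library, and had a log2 fold change of -0.45 ± 0.071 (adjusted p = 0.000988), just under the fold threshold. Irf1 had one of -0.30 ± 0.067 (adjusted p = 0.0128).

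With CsA, under which 2.92% of all genes changed, Irf4 fell to 3997, 3738 and 3836 (log2 fold change -0.57 ± 0.071, 1.48-fold lower, adjusted p = 0.000228). Irf8 measured 1229, 1274 and 812 with CsA, which overlapped restimulation alone (-0.19, 95% confidence interval -0.58 to 0.19). Irf1 had a log2 fold change of -0.21 (-0.35 to -0.07, adjusted p = 0.0688). Irf7 and Irf9 showed no fall that could be detected with either inhibitor: for Irf7 the log2 fold changes were 0.03 (-0.58 to 0.64) with CM-4620 and 0.05 (-0.56 to 0.67) with CsA, and for Irf9 they were -0.05 (-0.20 to 0.10) and -0.07 (-0.22 to 0.08). Irf7 rested on between 32 and 44 reads per library in the restimulated groups and on 8, 22 and 21 reads in resting iTregs.

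**Figure D3:**
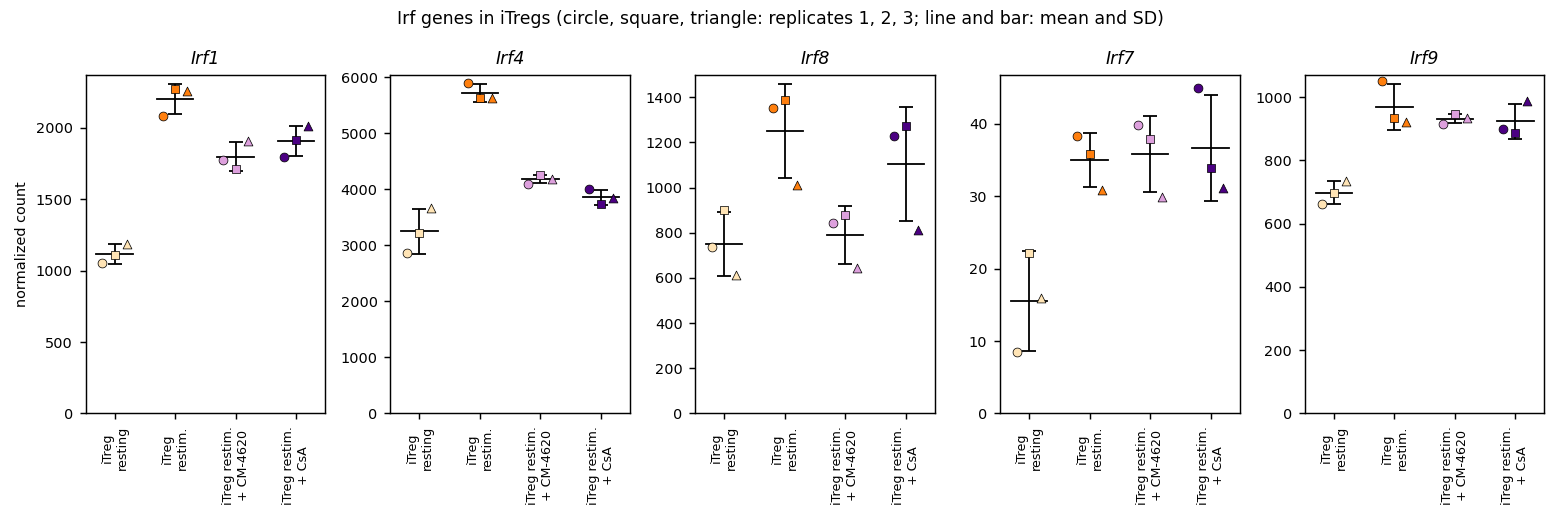
Normalized counts (linear axes from 0) of 5 Irf genes in the iTreg groups, resting, restimulated alone and restimulated in the presence of CM-4620 or CsA, by replicate, with mean and SD. Irf4 is lower with both inhibitors than in any restimulated library and stays above the resting libraries, whereas Irf7 and Irf9 lie at about their restimulated level with both.

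Set directly against each other, the 2 inhibitors gave no member past the threshold in limma, nor in edgeR or DESeq2 on the recovered reads, and 0.36% of all genes differed. At an unadjusted p under 0.05, 2 members were lower with CM-4620 than with CsA, Irf5 (log2 difference -0.44, adjusted p = 0.0967) and Irf8 (-0.47, adjusted p = 0.326). Without replicate 3 of each group, Irf8 was called lower with CM-4620 (-0.54, adjusted p = 0.00242). On the log2 scale, the part of the restimulation change of Irf4 that was left was 45.1% ± 3.27 (SD, n = 3) with CM-4620 and 31.0% ± 5.94 with CsA. For Irf1 it was 70.0% ± 8.25 and 78.8% ± 8.31. For Irf8 it was 10.6% ± 33.0 and 74.0% ± 48.6. These shares take the group means of resting and restimulated iTregs as fixed. The SDs for Irf8 therefore include differences between replicate numbers, and Irf8 was lowest in replicate 3 in all 4 iTreg groups. Number by number, Irf8 was lower with CM-4620 (845, 880 and 644) than with CsA (1229, 1274 and 812). Shares within replicate numbers were not computed, and with the number as a replicate block the direct difference was still not called. Compared with resting iTregs, Irf1 and Irf7 remained higher under both inhibitors. With CM-4620, where 7.1% of all genes differed from resting, their log2 fold changes were 0.69 (adjusted p = 5.59e-06) and 1.24 (adjusted p = 0.00754). With CsA, where 9.43% did, they were 0.77 (adjusted p = 1.26e-06) and 1.27 (adjusted p = 0.00507), and Irf8 was higher by 0.55 (adjusted p = 0.0383). The calls of Irf7 were lost without replicate 1 under both inhibitors (adjusted p = 0.103 and 0.0898), and that of Irf8 under 5 of the 15 alternatives.

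Levels of different members can be compared only per length, so each was divided by the kilobases of its annotated exons. The exons of all annotated transcripts were merged, so this length can exceed that of the main mRNA and lower a member's share. For Irf7 they formed 1 block of 3776 bases that covers the whole gene. The shares hold only for these lengths. On that scale the family as a whole summed to 1117 ± 13.1 (SD, n = 3) normalized counts per kb in resting Tconvs and to 3591 ± 70.5 in activated Tconvs. The sum was 1178 ± 39.9 and 1313 ± 7.22 in resting and activated tTregs. For resting iTregs it was 1467 ± 99.0, after restimulation 2365 ± 65.7, and under CM-4620 and CsA 1894 ± 33.1 and 1912 ± 31.7. Resting Tconvs and both states of tTregs were thus made up mostly of Irf1, Irf3 and Irf9. In resting Tconvs these took 36.3% ± 0.18, 27.7% ± 1.4 and 20.4% ± 0.66 of the sum, and Irf4 took 0.61% ± 0.077. On activation Irf1 took 45.9% ± 0.61 and Irf4 24.5% ± 0.5. In activated tTregs Irf4 took 6.01% ± 1.2. In iTregs Irf4 was the leading member in every state, with 45.0% ± 2.6 in resting and 49.3% ± 0.74 in restimulated cells, and Irf1 came next with 19.1% ± 0.28 and 23.5% ± 1.7.

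**Figure D4:**
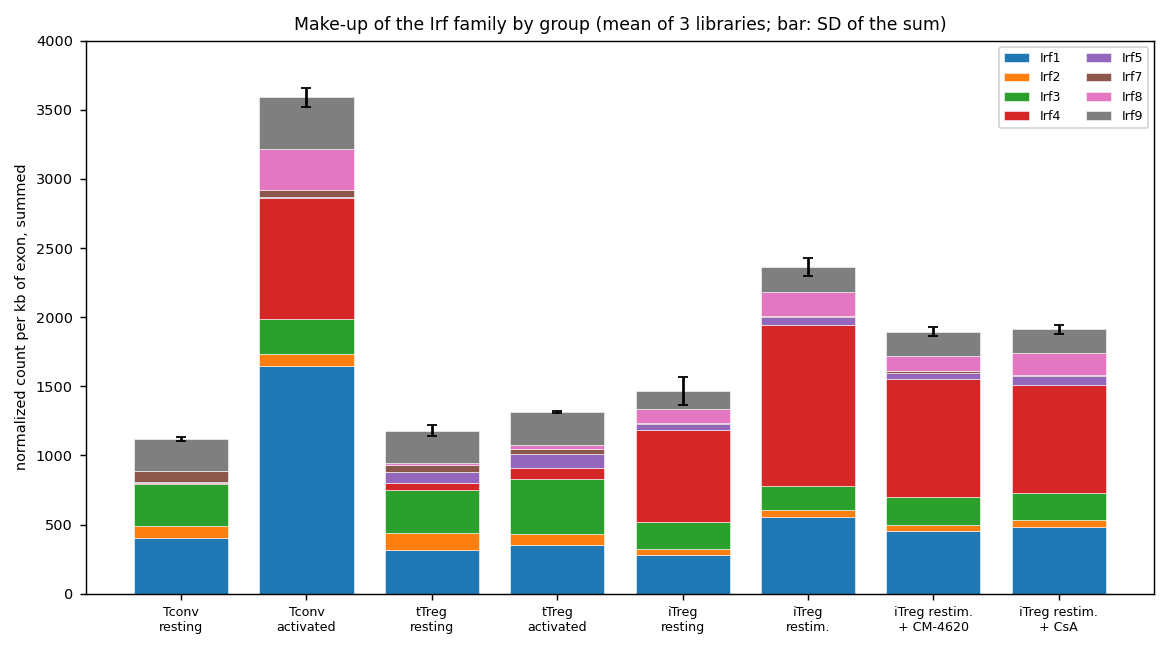
Sum of the 8 Irf genes in normalized counts per kb of exon, stacked by member as means of 3 libraries, with the SD of the sum. Irf1 and Irf4 account for most of the rise in activated Tconvs, and Irf4 is the largest block in all 4 iTreg groups.

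Read across groups, the members differed in how far their level ranged. The highest group mean was 171 times the lowest for Irf4, 130 times for Irf8, 18.4 times for Irf7 and 14.5 times for Irf5, against 5.88 for Irf1, 2.86 for Irf9, 2.67 for Irf2 and 2.28 for Irf3. Irf4 was highest in restimulated iTregs, followed by activated Tconvs and CM-4620-treated iTregs, whose ranges overlapped, then by CsA-treated iTregs, resting iTregs, activated tTregs, resting tTregs and resting Tconvs, each apart from the next. Irf8 was highest in activated Tconvs. Its 4 iTreg groups followed, each overlapping with the next of them and together apart from activated Tconvs above and activated tTregs below. The order of Irf1 began with activated Tconvs and restimulated iTregs. Of its last 3 groups, activated tTregs, resting tTregs and resting iTregs, each overlapped with the next, but the first and the last were apart. Irf5 ran from activated tTregs down to the 2 Tconv groups, which overlapped at the bottom. Irf7 ran from resting Tconvs down to resting iTregs, with the 3 stimulated iTreg groups overlapping. For Irf2 and Irf3 the 4 iTreg groups were at the bottom, each overlapping with the next of them, and the highest of them was apart from the group above. For Irf9 resting iTregs were lowest and apart from the rest.

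Over the 8 group means of the log2 level, Irf4 and Irf8 ran in parallel (Pearson's r = 0.98), Irf2 ran with Irf7 (0.90) and Irf3 was opposed to Irf4 (-0.79). These values describe 8 points that share cell types and treatments. Among the other 11724 genes the closest to Irf4 were Dna2, Ints2 and Acsf3 (r between 0.995 and 0.996), and the closest to Irf8 were St6galnac4, Apobec3 and 3830406C13Rik (0.988 to 0.994). Irf1 was most like H2-T22, Tgtp1 and Abcb1b (0.970 to 0.993), and Irf9 most like Trim12c, Gm12216 and Vipas39 (0.963 to 0.974). Zfp78 and Slfn5 were among the 3 closest to Irf7 (0.990 and 0.987). The closest to Irf5 were Gprc5a, Tob2 and Slc4a8 (0.988 to 0.989), those to Irf2 Rragb, Urb1 and Cyld (0.988 to 0.992), and those to Irf3 Upf2, Sqstm1 and Cmtm3 (0.991 to 0.992).

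The genes around the family were read as lists, each described by its counts. The counts stand beside the share of all genes that changed, which was 50.2% on Tconv activation, 21.9% on tTreg activation, 12.8% on restimulation of iTregs, 3.3% with CM-4620 and 2.92% with CsA. Against resting Tconvs it was 38.6% for resting tTregs and 63.6% for resting iTregs, and against activated Tconvs it was 41.6% for resting iTregs. Where a group mean did not exceed the highest floor of 3 reads among its libraries, levels are given in place of a fold. Of the interferon receptors, Janus kinases and STATs, 9 of 10 were tested, and on Tconv activation 4 were higher and 2 lower. Stat2, a partner of IRF9 in the interferon response, rose by 1.34 on the log2 scale, whereas Ifngr1 fell by 2.83 and Jak1 by 1.66. Activation of tTregs lowered Ifngr1 by 0.71. On restimulation of iTregs Stat2 rose by 1.05 and Jak2 by 0.53, and none of the list fell. CM-4620 lowered Stat2 by 0.62 and CsA lowered Jak2 by 0.52. In resting iTregs against resting Tconvs, 2 of the 9 were higher and 4 lower, among them Jak1 (-2.48) and Ifngr1 (-1.51), and in resting tTregs 4 were higher and 2 lower, with Ifngr1 at 1.66 and Ifngr2 at -1.41.

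Of the sensors, adaptors and kinases that act upstream of IRF3, IRF5 and IRF7, 15 of 17 were tested over these groups. On Tconv activation 3 rose and 3 fell, where 50.2% of all genes changed, with Ikbkb at -1.39 and Ifih1 at -0.80. On tTreg activation 1 rose and 3 fell, with Tlr7 at -1.16. In resting tTregs 4 were higher than in resting Tconvs and 3 lower. Tlr7, an endosomal RNA sensor upstream of IRF5 and IRF7, was the largest at 2.26. In resting iTregs 1 was higher and 7 lower, with Ikbke, a kinase of IRF3 and IRF7, at -2.62, Tlr7 at -2.34 and Ifih1 at -1.97. Of these, Tlr7 passed the filter only through Tconv or tTreg libraries. Restimulation raised Ifih1 by 0.94 and lowered Ikbke by 0.53 among 14 tested, and CM-4620 raised Ikbke by 0.55. With CsA none of the 14 passed in limma, edgeR or DESeq2, and 5 had an unadjusted p under 0.05 in limma.

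The list of DNA-binding partners and corepressors of IRFs gave 6 genes higher and 5 lower of 15 tested on Tconv activation. Jun rose by 2.67, and Bcl6, a repressor of effector T cell programs, fell by 3.16. Batf3 was at 12.3 normalized counts in activated Tconvs, at 530 in resting and 830 in restimulated iTregs, and at 0 in all tTreg libraries. On tTreg activation 3 rose and 2 fell, with Batf, the partner of IRF4 in T cells, at 0.91 and Bcl6 at -1.58. In resting iTregs 8 were higher and 6 lower than in resting Tconvs, and in resting tTregs 4 were higher and 3 lower. Restimulation raised Ikzf3 (0.71), Jun (0.67) and Batf3 (0.65) and lowered Jund (-0.70). Both inhibitors moved Ikzf3 and Jund back, by -0.57 and 0.61 with CM-4620 and by -0.76 and 0.62 with CsA, and no other gene of the list.

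Of the interferon-stimulated genes with ISRE elements 21 were tested, 2 further genes of the list not being analysed here, and 11 rose and 5 fell on Tconv activation, with a median log2 fold change of 0.98 against -0.04 over all genes. Ifit1 rose by 2.73, Zbp1 by 2.65 and Oas3 by 2.10, whereas Oasl1 fell by 2.48. On tTreg activation 1 rose and 6 fell (median -0.25), among them Oasl2 (-1.55) and Ifit3 (-1.33). In resting tTregs against resting Tconvs 5 were higher and 6 lower. In resting iTregs 5 were higher and 14 lower than in resting Tconvs (median -1.68). Against activated Tconvs 18 of 21 were lower and none was higher (median -2.28). Ifit3, Oas2, Oasl1, Oasl2, Rsad2, Ifi44 and Rtp4 averaged at most 5.45 in resting iTregs and passed the filter only through Tconv or tTreg libraries. The filter thus favoured lower values in iTregs for them, and these counts and medians include them. Ifit3 averaged 190 in resting Tconvs, 328 in activated Tconvs and 2.30 in resting iTregs, and Oasl2 averaged 155, 38.3 and 0.76. Restimulation of iTregs raised 5 of the 14 that were tested and lowered none, with Isg15 at 1.14, Usp18 at 0.92 and Bst2 at 0.86. CM-4620 raised Ifit1 (1.11) and lowered Usp18 (-0.53), and CsA lowered Usp18 (-0.59) and raised Xaf1 (0.55).

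Antigen presentation and other genes induced through IRF1 gave 11 higher and 1 lower of 15 tested on Tconv activation, with a median log2 fold change of 1.51. Gbp2, an interferon-inducible GTPase, averaged 640 in resting and 52730 in activated Tconvs (log2 fold change 6.36), and Socs1, Gbp3 and Cd274 rose by 2.80, 2.51 and 2.39. In tTregs 5 rose and 2 fell on activation, with Gbp2 at 0.99 and Cd274, which encodes PD-L1, at -0.73. Resting tTregs had 5 higher and 2 lower than resting Tconvs, led by Gbp3 (4.41) and Gbp2 (2.14). Resting iTregs had 5 higher and 3 lower than resting Tconvs, and 12 lower and none higher than activated Tconvs. On restimulation Gbp2 (1.92), Cd274 (1.37), Tap1 (0.63) and Psmb9 (0.55) rose and none fell. With either inhibitor none of the 15 passed in limma, edgeR or DESeq2, and at an unadjusted p under 0.05 limma gave 7 with CM-4620 and 6 with CsA.

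Genes of effector T cells and effector Tregs linked to IRF4 were higher in resting tTregs than in resting Tconvs for 13 of the 17 tested, with a median log2 fold change of 2.29, and lower for 2. Il1rl1 (5.21) and Ccr6 (3.92) were among the higher genes, and Ccr8 averaged 3.06 normalized counts in resting Tconvs and 82.4 in resting tTregs. The list was chosen to hold genes of effector Tregs, and its relation to the level of Irf4 was not tested. On Tconv activation 9 rose and 6 fell, with Havcr2 and Myc at 3.47 and 3.19, Fgl2 at -3.38 and Ccr8 at 55.7 normalized counts in activated Tconvs, and on tTreg activation 3 rose, Ccr8 and Havcr2 among them, and none fell. In resting iTregs 11 were higher than in resting Tconvs and 4 lower. Against activated Tconvs 9 were higher and 4 lower. Both comparisons include Ccr6, Il1rl1 and Klrg1, which passed the filter only through Tconv or tTreg libraries. Restimulation of iTregs raised 7 of 15 and lowered none, among them the cytokine genes Il10 (2.23) and Il21 (2.00), and Il9, which averaged 2.92 normalized counts in resting and 33.0 in restimulated iTregs. CM-4620 lowered Tbx21 (-1.64), Il10 (-1.38) and Tigit (-0.84) and raised Fgl2 (1.29). CsA raised Fgl2 (2.25) and Havcr2 (1.84) and lowered Il9 (-1.07). Of the 7 interferon genes read, only Ifng passed the filter. It averaged 4.85 normalized counts in resting Tconvs, 30.8 in activated Tconvs (log2 fold change 2.67), 5.25 in resting and 16.8 in restimulated iTregs, 4.78 where CM-4620 was present and 2.39 under CsA. Against restimulation alone, limma called it lower with CsA (adjusted p = 0.0219), and with CM-4620 its log2 fold change of -1.71 was not called (95% confidence interval -3.14 to -0.28, adjusted p = 0.154).

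**Figure D5:**
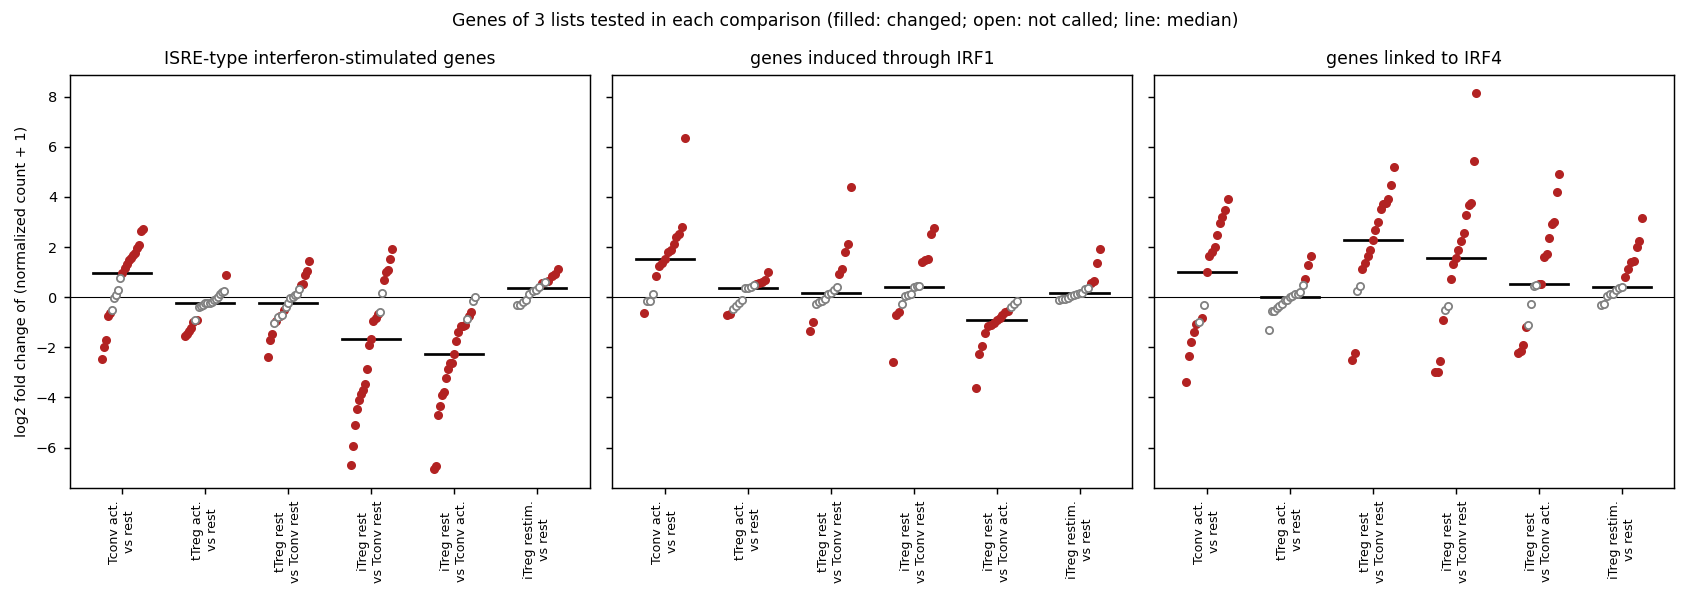
Log2 fold change of each gene of 3 lists in 6 comparisons, filled where counted as changed, with the list's median as a line. The median of the ISRE-type genes lies at 0.98 on Tconv activation, with genes on both sides of 0, and at -1.68 in resting iTregs against resting Tconvs. The ISRE-type list includes genes that passed the filter only through Tconv or tTreg libraries. The median of the genes induced through IRF1 lies at 1.51 on Tconv activation.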

How the data were processed

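The 24 RNA-seq libraries were analysed in the 8 groups of the labels, 3 per group, and the ATAC-seq and CUT&Tag samples were not analysed here. The libraries were made by a modified SMART-seq2 protocol, which does not mark the strand. Per the paper's methods and the submitters' processing notes, the authors trimmed reads with cutadapt 1.18, aligned them with STAR 2.5.3 and counted genes with RSEM 1.3.0 on GRCm38. The deposited values are a normalized signal, counts divided by 1 size factor per library (DESeq2 1.26). Taking a library's lowest positive value as 1 read gave whole reads for 100% of values within 0.01 reads, which were used for depth and for the count tests.

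A gene was tested where 3 or more libraries of a fit held 10 or more normalized counts. Tests were made with limma 3.58.1 (R 4.3.3, trend) on log2(normalized count + 1), so folds of low genes are understated. The fits held 15 libraries (Tconvs, tTregs and resting iTregs), 12 libraries (iTregs) or, for comparisons across these, all 24. Adjusted p-values are Benjamini-Hochberg over all genes tested. Alternatives were edgeR 4.0.16 and DESeq2 1.42.0 on recovered reads, 2 other scalings, pseudocounts of 0.1 and 5, 2 other filters, other sets of libraries, a replicate block, each replicate left out in turn, and the adjusted p alone. edgeR called 5798 genes on Tconv activation and 1423 on iTreg restimulation, where limma called 5774 and 1425. The steps were tested on simulated data. Floors and read counts cover counting error only. The members, the lists (interferon receptors, Janus kinases and STATs, sensors and kinases upstream of IRFs, partners and corepressors, ISRE-type genes, genes induced through IRF1, genes linked to IRF4, interferon genes, and cell type markers) and the motifs were chosen with earlier results of these data known. From each list, up to 4 genes with the largest change among those past the thresholds were named, and levels of others are given where the text turns on them. Some genes of these lists are counted in them but not reported here by name. Figures were drawn with matplotlib 3.10.9 in Python 3.11.15.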

Additional observations from a re-analysis of the deposited data

Results flagged for a closer look

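For 13 responses the test of the difference between cell types itself passed, and these are given as values. Relative to the activation response of Tconvs, that of tTregs differed on the log2 scale by -1.86 for Irf1, -0.73 (-0.725) for Irf2, 0.62 (0.617) for Irf3, -6.13 for Irf4, -5.59 for Irf8 and -0.72 (-0.724) for Irf9. Relative to the activation response of tTregs, the restimulation response of iTregs differed by 0.82 for Irf1, 0.75 for Irf2 and 1.61 for Irf7. Relative to the activation response of Tconvs it differed by -1.04 for Irf1, -6.15 for Irf4, 1.74 for Irf7 and -6.21 for Irf8. The comparisons share the Tconv and tTreg libraries, so they are not independent of each other. For Irf4 and Irf8 the resting iTregs started from 3248 and 750 normalized counts and resting Tconvs from 33.4 and 16.1. The responses were measured after restimulation in iTregs and after activation in the other cells, and the durations were not given in the sources used here, so cell type and stimulation cannot be told apart in the last 2 sets.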

How the results depend on the processing

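Of 76 calls of members over the 18 comparisons, recomputed as 1116 values under 15 alternatives, 1092 kept their direction and their side of the thresholds, 24 kept the direction but were no longer called, and 0 reversed. The cause was not tested in any case. The count of members lower with CM-4620 than in restimulated iTregs, 1 in the report, was 3 on the adjusted p alone and 0 with no filter, in the fit of all 24 libraries and with DESeq2, and between 0 and 1 with each replicate left out. The count raised by restimulation of iTregs, 4, was 2 without replicate 1. Without replicate 3, Irf9 was called higher as well (log2 fold change 0.54, adjusted p = 4.72e-05), as it was on the adjusted p alone. The count that differed from resting with CM-4620, 2, was 4 on the adjusted p alone, 1 with the stricter filter, and between 1 and 2 with a replicate left out. With CsA it was 6 on the adjusted p alone, against 3. Between the inhibitors it was between 0 and 1, and for the response of iTregs minus that of tTregs between 2 and 5, against 3, the highest without replicate 2.

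Over all genes, the adjusted p alone gave 3994 calls on tTreg activation against 2517, 3264 on restimulation against 1425, 869 with CM-4620 against 366, 945 with CsA against 324, 86 between the inhibitors against 40, and 2045 and 2705 for CM-4620 and CsA against resting, where the report used 789 and 1047. With the stricter filter, which tests fewer genes, restimulation gave 878, CsA 213, and the inhibitors against resting 479 and 654. In the fit of all 24 libraries CM-4620 gave 232, CsA 187 and the inhibitors against each other 10. Without replicate 1 these 3 counts were 206, 132 and 10 and without replicate 2 they were 170, 124 and 4, and the response of iTregs minus that of tTregs gave 1520 without replicate 1 against 2501. Quantile normalization moved the median of all genes by up to -0.137 on the log2 scale in comparisons of iTregs with the other cells. It turned 2634 higher and 2150 lower genes in resting iTregs against activated Tconvs into 2095 and 2835, and 2856 and 2344 in restimulated iTregs against activated Tconvs into 2345 and 3023. No member changed direction with it, and Irf4 in resting iTregs against activated Tconvs was then called lower (-0.51).

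The replicate numbers are shared between groups, the labels do not say what they stand for, and the main fits did not treat them as pairs. The correlations of same-numbered libraries ran from -0.42 to 0.24 over the 15 libraries. Over the 12 iTreg libraries they ran from -0.04 to 0.30, with a mean of 0.15 against -0.075 for other numbers. There, 10 of 12 correlated best with their own number, so a shared replicate effect in iTregs is possible. With the number as a replicate block, 4 members changed on Tconv activation, 3 on tTreg activation and 4 on iTreg restimulation, as without it, and no call of a member changed in any of the 18 comparisons. Depth limits Irf7 in iTregs, Irf4 and Irf8 in resting Tconvs and Irf5 in resting and activated Tconvs, which rest on between 8 and 44 reads per library.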
